A study of Mus musculus with 144 samples.

Results

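The cells described here are 90 single cells sorted from mouse retinas after crush of the optic nerve, divided into 12 cells that carried transcripts of dividing cells and the 78 other cells. A cell was called cycling when at least 3 of 8 genes (Mki67, Top2a, Cdk1, Birc5, Ccna2, Ube2c, Tpx2 and Nusap1) stood at 20 FPKM or more. FPKM counts fragments per kilobase of exon, scaled to the assigned reads of the cell, so that levels are per length and can be compared between genes. The cells were thus chosen by the values of these 8 genes, which are described below without a test.

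The series holds 144 cells from the retina, 1 library per cell. All came from Iba1-EGFP mice 16 weeks old and carry the cell type label microglia. There are 54 cells with no treatment, 54 cells taken 2 days and 36 cells taken 4 days after the crush. The reporter is driven by Iba1, a gene that microglia share with other macrophages, so the sort can hold both. Each of the 3 plates held all groups in separate rows, and position on the plate and day cannot be told apart. The labels name no animal, so each day is 1 sample of cells. No test across cells was made, and spreads are between cells.

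Microglia are the resident macrophages of the retina, and they divide locally when the optic nerve is injured. A dividing cell first copies its DNA in S phase, with the MCM helicase, the sliding clamp PCNA and enzymes that make deoxynucleotides. It then builds the mitotic spindle under cyclin B and Cdk1, and the anaphase-promoting complex with Cdc20 ends mitosis by marking cyclin B and securin for destruction. Many genes of the second step are read from promoters with a CHR element bound by the DREAM and MuvB complexes, and many genes of the first step are bound by E2F.

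By the rule 1 of the 54 untreated cells was cycling (1.85%, exact Clopper-Pearson 95% interval 0.0469% to 9.89%). Of the 12 cycling cells after crush, 5 were among the 54 cells of day 2 (9.26%, 3.08% to 20.3%) and 7 among the 36 cells of day 4 (19.4%, 8.19% to 36%). The share was highest at day 4 and lowest in untreated cells, and the intervals, which cover counting error only, overlap between each pair of groups. After crush, plate 1 held 1 cycling cell of 30, plate 2 held 5 of 30 and plate 3 held 6 of 30. Within plates the day 2 counts were 0, 2 and 3 of 18 cells and the day 4 counts 1, 3 and 3 of 12 cells. The share was therefore higher at day 4 than at day 2 in each plate. A count of 0 of 18 allows a share of up to 18.5%.

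The 8 genes did not mark the same cells. Birc5, which encodes the survivin subunit of the chromosomal passenger complex, was at 20 FPKM or more in 11 of 12 cycling cells, against 5 of 78 other cells. Top2a, the topoisomerase that untangles replicated DNA, passed it in 9 of 12 cycling cells and 1 of 78 other cells. Ube2c, the ubiquitin-conjugating enzyme of the anaphase-promoting complex, passed it in 8 and 2 cells.

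Cdk1, the mitotic kinase, passed 20 FPKM in 9 of 12 cycling cells and 7 of 78 other cells. The spindle assembly genes Tpx2 and Nusap1 passed in 7 and 6 cycling cells, against 2 other cells each. Ccna2, the cyclin of S phase and early mitosis, passed in 7 cycling cells and 4 other cells. Mki67, the coat protein of mitotic chromosomes that histology uses as the marker of division, was the least frequent, at 4 of 12 cycling cells and 3 of 78 other cells. All 4 cycling cells with Mki67 at that level were of day 4, at 57.5 to 78.9 FPKM, and the 5 day 2 cycling cells had 0 to 15.5 FPKM. Of the 3 other cells, 2 were of day 2 and 1 of day 4.

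Of the named markers of dividing cells, Mki67, Top2a and Cdk1, at least 1 stood at 20 FPKM in 11 of 12 cycling cells. These 3 are among the 8 genes that chose the cells, so this count is partly fixed by the rule and is no support for it. Only 1 of the 3 was at that level in 4 cycling cells, and also in 11 of the 78 other cells. The cycling cell with none of the 3 at that level was the cell of day 2, plate 2, well F6. It had 0.0208 FPKM of Mki67, none of Cdk1 and 1.13 FPKM of Top2a, but 344 FPKM of Birc5, 243 of Ube2c, 229 of Nusap1 and 53.8 of Tpx2. The label cycling thus holds for this cell by the rule and not by the 3 markers.

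**Figure D1:**
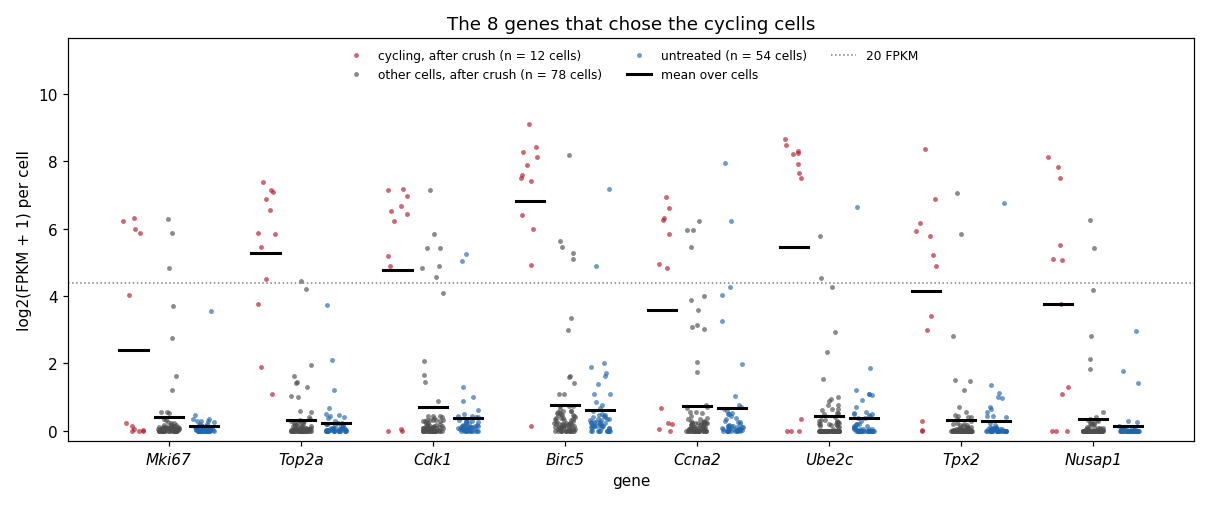
Levels of the 8 genes that chose the cells, as log2(FPKM + 1) per cell on the vertical axis, with 12 cycling cells on the left, 78 other cells after crush in the middle and 54 untreated cells on the right of each gene. Black bars are means over cells and the dotted line is 20 FPKM. In cycling cells each gene has cells on both sides of the line. The lowest Top2a value in them is 1.13 FPKM, and Mki67 is above the line in 4 of 12.

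Just inside the rule were 3 cells with exactly 3 of the 8 genes at 20 FPKM, and just outside it were 8 cells with 2. In the 3 inner cells the third-highest gene stood at 27.8, 28.7 and 117 FPKM. In the 8 outer cells it stood between 0.0526 and 17.3 FPKM. A further 10 cells had 1 gene and 60 had none. With 2 genes required in place of 3, 20 cells would count as cycling, and with 4 genes, 9. With the level at 10 FPKM the count was 13 and with 50 FPKM it was 10.

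The promoters of these genes are shown because the motifs behind the timing of the cell cycle can be read in them. The windows run from 120 bases before to 30 bases after the RefSeq transcript start (GRCm38.p6). Capitals mark TTTGAA (the core of the CHR element), CCAAT (the box bound by NF-Y) and TTTNNCGC (an E2F motif), on either strand, so TTCAAA and ATTGG are the reverse forms of the first and the second. In the order given they lie at chr10:69352883-69353032 (minus strand), chr2:164769809-164769958 (plus strand), chr4:118437314-118437463 (minus strand) and chr5:138171854-138172003 (minus strand). Mcm7 has another RefSeq start, whose window is not printed.
Cdk1: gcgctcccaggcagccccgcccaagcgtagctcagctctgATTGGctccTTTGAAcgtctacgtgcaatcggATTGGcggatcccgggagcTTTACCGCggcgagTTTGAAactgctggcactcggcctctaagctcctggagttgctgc
Ube2c: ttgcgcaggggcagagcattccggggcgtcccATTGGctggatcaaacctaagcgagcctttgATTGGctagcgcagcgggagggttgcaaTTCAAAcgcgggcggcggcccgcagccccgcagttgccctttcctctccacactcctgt
Cdc20: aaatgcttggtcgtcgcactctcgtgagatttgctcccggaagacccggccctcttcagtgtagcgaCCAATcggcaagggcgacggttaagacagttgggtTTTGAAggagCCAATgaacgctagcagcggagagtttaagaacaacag
Mcm7: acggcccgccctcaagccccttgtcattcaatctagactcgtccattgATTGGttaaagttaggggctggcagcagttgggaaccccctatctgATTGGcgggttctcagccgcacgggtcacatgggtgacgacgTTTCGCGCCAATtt

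In Cdk1, Ube2c and Cdc20 a CHR core lies 15, 29 and 18 bases before the start, with at least 1 CCAAT box upstream of it. Mcm7, a subunit of the replicative helicase, has no TTTGAA in this window. Its E2F motif runs into a CCAAT box, and the letters of both overlap. Over the full windows of 250 bases before to 50 bases after the start, TTTGAA was found in 37 of 51 matched genes of the spindle, kinetochore and centrosome list (72.5%) and in 5 of 33 replication genes (15.2%), against 20.2% of 27025 genes. TTTNNCGC was found in 15.7% of the spindle genes and 48.5% of the replication genes, against 5.93% of all genes. CCAAT was found in 74.5% of the spindle genes, 63.6% of the replication genes and 41.1% of all genes. A match is a string of letters in the reference sequence and was not measured as a binding site.

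The cycling cells differed among themselves in which step of the cycle their transcripts came from. For each cell the genes at 20 FPKM or more were counted in a list of 42 genes of the replication origin and fork and in a list of 58 genes of the spindle, kinetochore and centrosome. The 12 cycling cells held 1 to 28 replication genes (median 12) and 5 to 37 spindle genes (median 19.5). The 78 other cells held 0 to 22 replication genes (median 3) and 0 to 12 spindle genes (median 1).

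Pcna and Ccnb1, the gene of cyclin B, show the range cell by cell. Pcna was 0.830, 0.399 and 0.288 FPKM in the day 2 cells F6 (plate 2), D5 and E5 (plate 3), whose Ccnb1 was 532, 494 and 138 FPKM. The opposite held in D1 (day 2, plate 3), H4 (day 4, plate 1) and G4 (day 4, plate 3), with Pcna at 218, 299 and 295 FPKM and Ccnb1 at 0.139, 0 and 2.09 FPKM. The other 6 cycling cells held both, with Pcna between 22 and 455 FPKM and Ccnb1 between 109 and 302 FPKM. Cdc20 was at or below 0.389 FPKM in the 3 cells with high Pcna and little Ccnb1, and reached 1109 FPKM in F6. It did not follow Ccnb1 in every cell. Cdc20 was 0 FPKM in D5, and also in H4 of day 4, plate 2, where Ccnb1 was 118 FPKM. No phase was assigned to a cell from these counts.

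**Figure D2:**
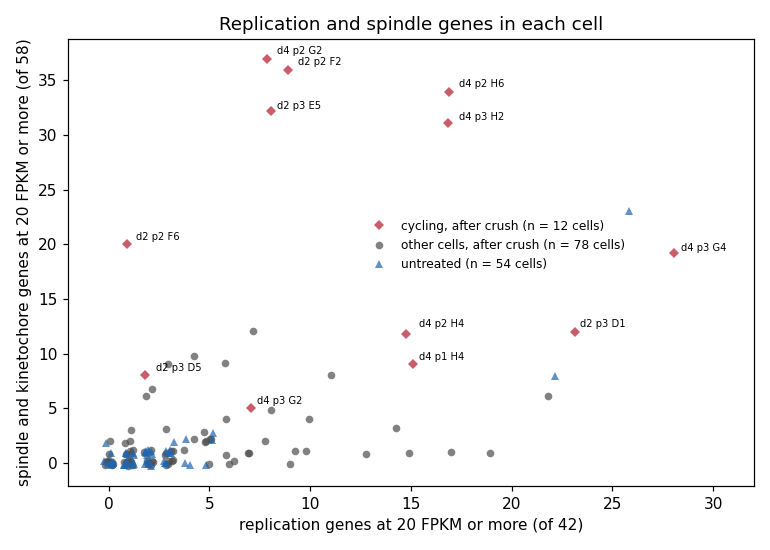
Each point is 1 cell, placed by its number of replication genes (horizontal, of 42) and of spindle, kinetochore and centrosome genes (vertical, of 58) at 20 FPKM or more, with a small jitter; diamonds are the 12 cycling cells labelled by day, plate and well, circles the 78 other cells after crush and triangles the 54 untreated cells. Cycling cells spread from 1 replication and 20 spindle genes (day 2, plate 2, F6) to 28 and 19 (day 4, plate 3, G4), and the other cells reach 22 replication genes with at most 12 spindle genes.

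The rule does not take in every cell with replication transcripts. At least 5 replication genes were at 20 FPKM in 10 of 12 cycling cells, in 27 of 78 other cells after crush and in 5 of 54 untreated cells. Of these 27 other cells 9 were of day 2 and 18 of day 4, 18 had none of the 8 rule genes at 20 FPKM, and 4 had no spindle gene. At least 5 spindle genes were at 20 FPKM in 12 of 12 cycling cells and 9 of 78 other cells. The rule genes are mostly genes of G2 and mitosis, so the other cells include cells with replication transcripts, and differences in replication genes below are differences from such a mixture.

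The 12 cycling cells held more detected genes than the other cells, which bears on each comparison below. The median was 5350.5 genes at 1 FPKM or more in cycling cells (range 1956 to 7888) and 3578.5 in other cells (1073 to 6941). Recovered reads had a median of 8.39 M in cycling cells (3.06 to 10.8 M) and 5.31 M in other cells (0.190 to 18.9 M), with M for 1e+06. Of the 12 cycling cells 8 were above the median of the other cells in detected genes. The 2 day 2 cells F6 and D5 had 1961 and 1956 detected genes from 9.54 and 6.79 M reads.

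**Figure D3:**
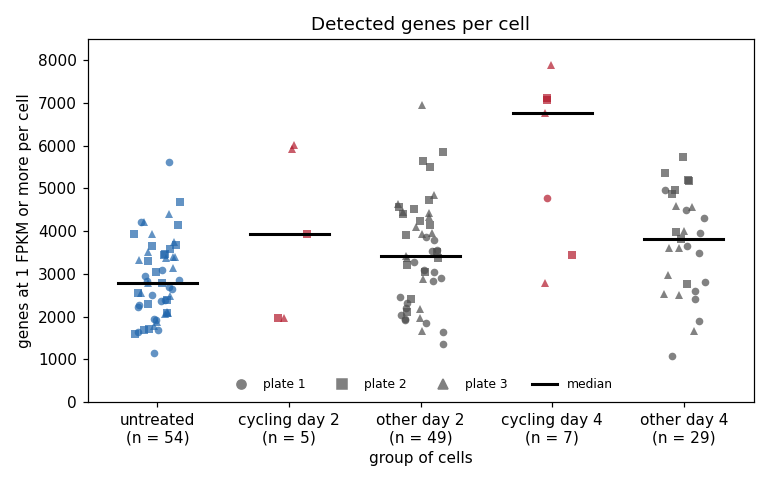
Genes at 1 FPKM or more per cell (vertical) in untreated cells, in cycling and other cells of day 2 and in cycling and other cells of day 4, with the plate as the symbol and the median as a black bar. The medians are 3934 genes in the 5 cycling and 3428 in the other cells of day 2, and 6769 in the 7 cycling and 3815 in the other cells of day 4; day 2 holds the 2 cycling cells with the fewest, at 1956 and 1961.

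For every gene log2(FPKM + 1) was then averaged over the cells of a group, and the difference taken was cycling minus other cells. A gene was called when the difference was at least 1 and had the same sign on both days and in plates 2 and 3, the plates with 3 or more cycling cells. Of 9676 genes measured in at least 10% of the 90 cells, leaving out the 8 rule genes, 1756 were called higher (18.1%) and 46 lower (0.475%). The median difference of all genes was 0.39 and 74.9% of genes lay above 0. With day, plate and the number of detected genes as terms in a linear model, 713 genes were higher and 577 lower, and the median was -0.05. With the log2 of the mean FPKM in place of the mean of log2 values, 740 were higher and 1157 lower, and the median was -0.10. The excess of higher calls thus depends on the scale, and the part of detected genes in it was not tested beyond these values. A mean over cells does not tell more cells with a transcript from more of it per cell, so counts of cells at 20 FPKM stand beside the differences. Without plate 2, 2653 genes were higher. The count of lower genes was 134 without plate 1 and 229 without plate 3, 564 among cells of day 2 alone and 103 among cells of day 4 alone. With 1 day alone, or without plate 2 or 3, the same sign was asked in fewer days or plates. Such counts rest on a looser rule than the 1756 and 46. The number of genes measured also changed, from 8772 on day 2 alone to 10503 without plate 1.

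The largest difference of all was in Cks1b, which encodes a small subunit that binds Cdk1 and helps to degrade the inhibitor p27 (chr3:89415472-89418383). Cks1b had a lowest, median and highest value of 0, 373 and 691 FPKM in cycling cells, against 0, 0.364 and 787 FPKM in other cells. It was at 20 FPKM or more in 11 of 12 cycling cells and 9 of 78 other cells, a difference of 6.46. The ranges overlap, and 1 cycling cell of day 4 (plate 1, H4) had none.

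Genes of mitosis were higher as a group. Of 35 measured spindle, kinetochore and centrosome genes, 33 were called higher and none lower. Over all genes 18.1% were called higher and 0.475% lower. The median difference of the list was 3.00, against 0.39 over all genes. The median was 2.77 with detected genes as a term and 3.38 for the log2 of the mean, so it stayed above the median of all genes on each scale. It was 3.16 on day 2 and 3.01 on day 4. The list holds genes that are switched on with the rule genes, and its count is a description of cells chosen by that program. A gene could also pass the filter of 10% of the 90 cells largely through the 12 cycling cells. Cdca8, for example, was at 1 FPKM or more in 83.3% of cycling cells and 6.41% of other cells. List members that failed the filter drop out, so the counts of this and the other cell cycle lists are partly set by it.

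Within that list Pbk, a mitotic kinase (chr14:65805837-65817822), had 0.0822, 246 and 596 FPKM as lowest, median and highest in cycling cells and 0, 0.239 and 444 FPKM in other cells. Its difference was 6.03, with 10 of 12 cycling cells and 4 of 78 other cells at 20 FPKM or more. Kpna2, an importin alpha (chr11:106988629-106999541), differed by 5.54, by 7.34 on day 2 and by 3.99 on day 4. Its highest cycling value was 2229 FPKM, in the day 2 cell F6. Of the Kpna2 values above 0, 77% were not whole reads, so reads shared with near copies may be split in it.

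Tacc3, which stabilises spindle microtubules, differed by 4.79 and was at 20 FPKM in 9 of 12 cycling cells and 9 of 78 other cells. Cdca8, the borealin subunit of the passenger complex, differed by 4.50 (8 of 12 and 1 of 78 cells). The mitotic kinases Aurka, Aurkb, Plk1 and Nek2 were higher by 4.09, 3.01, 3.00 and 3.57, and the kinetochore genes Ndc80, Spc24 and Spc25 by 3.64, 3.60 and 3.29. Kif4, a chromokinesin, and Cenpk, a centromere gene, were the measured members that were not called, at 0.21 and 0.78.

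Cyclins, cyclin-dependent kinases and the anaphase-promoting complex followed, with 12 of 16 measured genes higher and none lower, where 18.1% of all genes were higher. The list median was 2.25. Ccnb1 (chr13:100778650-100786570) had 0, 169 and 532 FPKM as lowest, median and highest in cycling cells, against 0, 0.0596 and 67.6 FPKM in other cells. It was at 20 FPKM in 9 of 12 cycling cells, 2 of 78 other cells and none of 54 untreated cells. The difference was 5.53, and 59% of its values above 0 were not whole reads. Ccnb2, the other B-type cyclin, differed by 4.22.

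Cdc20 (chr4:118432901-118437352) reached 1109 FPKM in cycling cells, with a median of 118 FPKM, against a highest value of 79.7 FPKM and a median of 0 in other cells. The difference was 4.51, and 7 of 12 cycling cells and 1 of 78 other cells passed 20 FPKM. Cks2, the paralogue of Cks1b, differed by 4.09. Cdk4, the kinase of early G1, was higher by 2.31 and its partner Ccnd3 by 1.86. The G1 and S genes Ccnd1, Cdk6 and Cdk2 were not called, with differences of 0.09, -0.37 and 0.31.

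**Figure D4:**
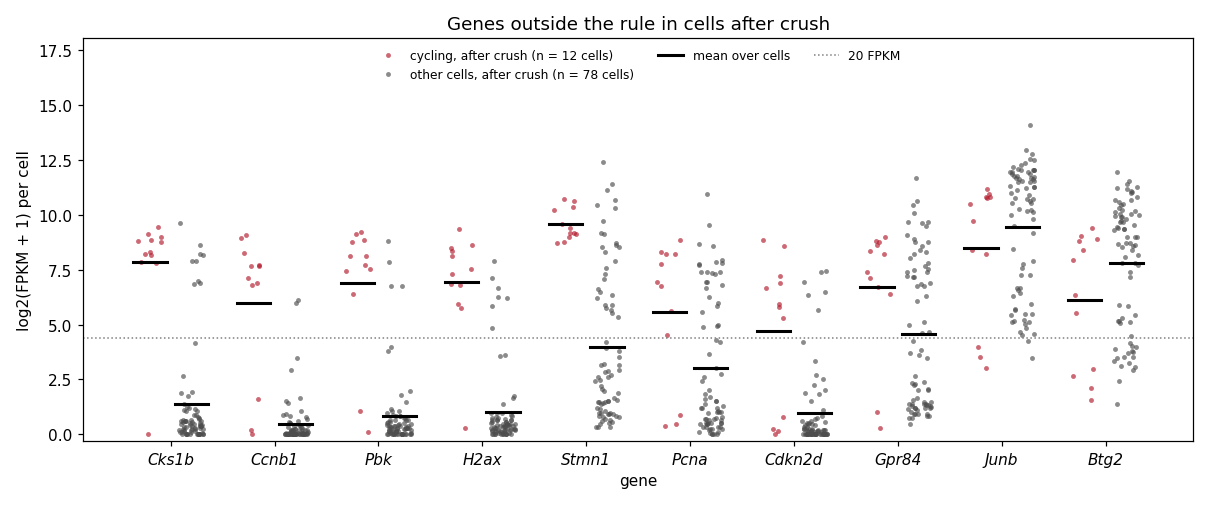
Levels of 10 genes outside the rule as log2(FPKM + 1) per cell on the vertical axis, with 12 cycling cells on the left and 78 other cells after crush on the right of each gene, means over cells as black bars and 20 FPKM as a dotted line. Stmn1 is above the line in 12 of 12 cycling cells; Cks1b, Ccnb1, Pbk and H2ax are near 0 in most other cells; Junb and Btg2 have 3 and 4 cycling cells below the line.

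Among 13 measured genes of condensin, cohesin and sister separation 7 were higher and none lower (median 1.71), where 18.1% of all genes were higher. The called genes were mostly condensin subunits, which compact chromosomes, and included Smc2 (3.48), Smc4 (3.21) and Ncaph (2.82). Of the cohesin ring, Smc1a was higher by 2.30, while Smc3, Rad21 and Stag2 were not called, at 0.30, 0.84 and 0.65. Pttg1, the gene of securin, differed by 0.17 and was not called.

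Replication genes were higher in fewer members. Of 32 measured genes of the replication origin and fork, 16 were higher and none lower, where 18.1% of all genes were higher. The list median was 1.6. The median was 0.84 with detected genes as a term and 1.0 for the log2 of the mean. It was 0.72 on day 2 and 1.64 on day 4. Mcm7 (chr5:138164583-138172422) had 0, 39 and 371 FPKM as lowest, median and highest in cycling cells, against 0, 0.0855 and 99.1 FPKM in other cells. It differed by 3.74, and its exons overlap those of Ap4m1 and Cops6 and of the miRNA genes Mir25 and Mir93.

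Cdc45, which opens the helicase at the origin, was at 20 FPKM in 7 of 12 cycling cells, against 1 of 78 other cells, and differed by 3.25. Pcna itself (chr2:132249162-132253314) had 0.288, 115 and 455 FPKM in cycling cells and 0, 1.53 and 1957 FPKM in other cells. Its highest value was thus in a cell outside the rule. It passed 20 FPKM in 9 of 12 cycling cells and 25 of 78 other cells. The Pcna difference was 2.56, made of 0.52 on day 2 and 3.74 on day 4. Mcm5 and Cdt1, the licensing factor that is destroyed in S phase, were not called, at -0.10 and 0.22.

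The enzymes of deoxynucleotide supply had 6 of 18 measured genes higher and none lower, where 18.1% of all genes were higher. Their median was 1.50, and 0.60 with detected genes as a term. Rrm2, the S-phase subunit of ribonucleotide reductase (chr12:24708241-24714146), was at 20 FPKM in 4 of 12 cycling cells, against 2 of 78 other cells. All 4 were day 4 cells, and the difference was 0.04 on day 2 and 4.04 on day 4. Tk1, thymidine kinase, differed by 1.34 on day 2 and 4.91 on day 4, and Dck, which salvages deoxycytidine, by 1.79 and 4.36. Tyms and Rrm1 were not called, at 1.66 and 2.08. Whether the days differ was not tested, since each day is 1 sample.

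Chromatin genes of S phase were higher in 16 of 20 measured members, with none lower, where 18.1% of all genes were higher. The list median was 2.01 (1.71 with detected genes as a term). H2ax, the histone variant phosphorylated at DNA breaks (chr9:44334694-44336077), had 0.213, 171 and 651 FPKM as lowest, median and highest in cycling cells, against 0, 0.302 and 234 FPKM in other cells. It passed 20 FPKM in 11 of 12 and 7 of 78 cells, and differed by 5.93. Asf1b, a chaperone that hands histones to new DNA (chr8:83955507-83970197), differed by 5.29 (10 of 12 and 2 of 78 cells), and all its values were whole reads. Hmgb2, an abundant chromatin protein of dividing cells, differed by 4.50, with 90% of its values not whole.

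Replication-dependent histone genes, a list put together by symbol after the values were seen, had 69 rows. Of these 22 were measured, 15 were higher and none lower, with a median of 2.48, where 18.1% of all genes were higher. The higher rows were H2A rows, except H1f4 (1.50). No H3 or H4 row was measured, and the measured H2B rows H2bc4 and H2bc8 differed by -0.07 and -0.03. The count thus describes H2A rows and not these histones as a class. Hist1h2ap and Hist1h2ao differed by 6.12 and 6.11. Both are near-identical copies on chromosome 13 and 97% of the values above 0 of each were fractions of a read, so their reads cannot be assigned to one of them. In H2ac11 and H2ac12, 98.6% and 100% of the values above 0 were not whole reads. The higher rows may thus share reads and are not separate results. In DNA repair and checkpoint genes of S phase, 3 of 7 measured genes were higher (median 1.08), where 18.1% of all genes were. Chek2, a checkpoint kinase, was among them at 1.42.

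The regulators above these programs had a smaller median difference. Of 10 measured E2F, DREAM and proliferation transcription factors, 3 were higher and none lower, where 18.1% of all genes were higher. Nothing is read from this count, and the median of 0.53 lay near that of all genes. The higher genes were Rbl1 (p107, 1.98), Tfdp1, the partner of E2F proteins (1.49), and E2f1 (1.31). Myc differed by 0.04 and Rb1 by 0.01. With detected genes as a term the median of the list was -0.13.

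Inhibitors of cyclin-dependent kinases stood on both sides. Of 15 measured CDK inhibitors and arrest genes 4 were higher and 2 lower, where 18.1% of all genes were higher and 0.475% lower. The list median was 0.46 pooled but -0.45 on day 2 and -0.03 on day 4. Cdkn2d, which encodes p19 Ink4d, an inhibitor of Cdk4 and Cdk6 (chr9:21288410-21291407), had 0, 57.1 and 455 FPKM as lowest, median and highest in cycling cells, against 0, 0.152 and 171 FPKM in other cells. It passed 20 FPKM in 8 of 12 cycling cells and 6 of 78 other cells, with a difference of 3.74 (3.24 on day 2 and 4.14 on day 4).

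Cdkn2c, the gene of p18 Ink4c and a close relative of Cdkn2d (chr4:109660876-109667189), passed 20 FPKM in 6 of 12 cycling cells, against 1 of 78 other cells, and differed by 3.10. The single other cell held 1085.5 FPKM of it. Cdkn1a, which encodes p21, the inhibitor induced by p53, differed by 2.49 (7 of 12 and 22 of 78 cells), and Trp53, the gene of p53, by 1.72. In single cells they stood with and without Ccnb1. The day 2 cell F2 had Cdkn2d, Cdkn2c and Cdkn1a at 383, 119 and 111 FPKM and Ccnb1 at 211 FPKM, while D5 had them at 0.0935, 0 and 0.373 FPKM and Ccnb1 at 494 FPKM. D1 had 59.3 FPKM of Cdkn2d and the day 4 cell H4 of plate 1 had 387 FPKM of Cdkn1a, with Ccnb1 at 0.139 and 0 FPKM.

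The lower members were Btg2, an antiproliferative gene induced by p53 and by immediate-early signals, at -1.65, and Ypel3, a gene linked to growth arrest in human cells, at -1.79 (-2.82 on day 2 and -0.06 on day 4). Btg2 was 1.98, 163 and 672 FPKM as lowest, median and highest in cycling cells, against 1.64, 420 and 3927 FPKM in other cells. Its difference was -2.94 on day 2 and -0.58 on day 4. Without plate 2 it was -0.14, without plate 3 it was -2.78, and without the cells that held 3 markers of another cell type it was -1.04.

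Tubulins and stathmin had 7 of 10 measured genes higher and none lower, with a median of 3.02, where 18.1% of all genes were higher. Stmn1, which encodes stathmin, a protein that destabilises microtubules (chr4:134468320-134473843), was high in every cycling cell. It had 414, 630 and 1693 FPKM as lowest, median and highest in cycling cells, against 0.250, 5.31 and 5398 FPKM in other cells. It passed 20 FPKM in 12 of 12 cycling cells and 28 of 78 other cells, and differed by 5.58. On the log2 of the mean FPKM the difference was 1.74. Of the Stmn1 values above 0, 76% were not whole reads.

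Tubb5, a beta tubulin (chr17:35833921-35838306), had 95.7, 446 and 573 FPKM in cycling cells, against 0.215, 19.2 and 2139 FPKM in other cells. It passed 20 FPKM in 12 of 12 and 39 of 78 cells and differed by 3.85. The alpha tubulins Tuba1b and Tuba1c were higher by 3.05 and 3.00, and Tubg1, the gamma tubulin of the centrosome, by 3.41.

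Of the genes on no list of the cell cycle, Sae1 (chr7:16320234-16387806), a subunit of the enzyme that activates SUMO, differed by 4.27, by 6.63 on day 2 and 2.22 on day 4. Timm50, a receptor of the mitochondrial inner membrane import channel, differed by 3.92. Taf9 and Ak6, which share exons, differed by 4.12 and 3.96, and their reads cannot be told apart.

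Housekeeping programs were higher on the main scale and closer to the other genes on the others. Over all genes 18.1% were called higher on the main scale. The proteasome had 17 of 31 measured genes higher and none lower (median 1.65) and the respiratory chain 15 of 31 (1.20). Glycolysis had 7 of 14 higher (1.15) and the Ran cycle, nucleolus and Myc-linked growth list 10 of 21 (1.36). With detected genes as a term these medians were 0.22, 0.24, 0.23 and 0.05, against -0.05 for all genes. For the log2 of the mean they were 0.34, 0.08, 0.27 and 0.54. The single genes that differed most were Cox7a2 (3.69), a subunit of cytochrome c oxidase found at 20 FPKM in 12 of 12 cycling cells and 38 of 78 other cells, and Ran (3.69), the GTPase of nuclear transport and spindle assembly, found in 12 of 12 and 41 of 78.

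**Figure D5:**
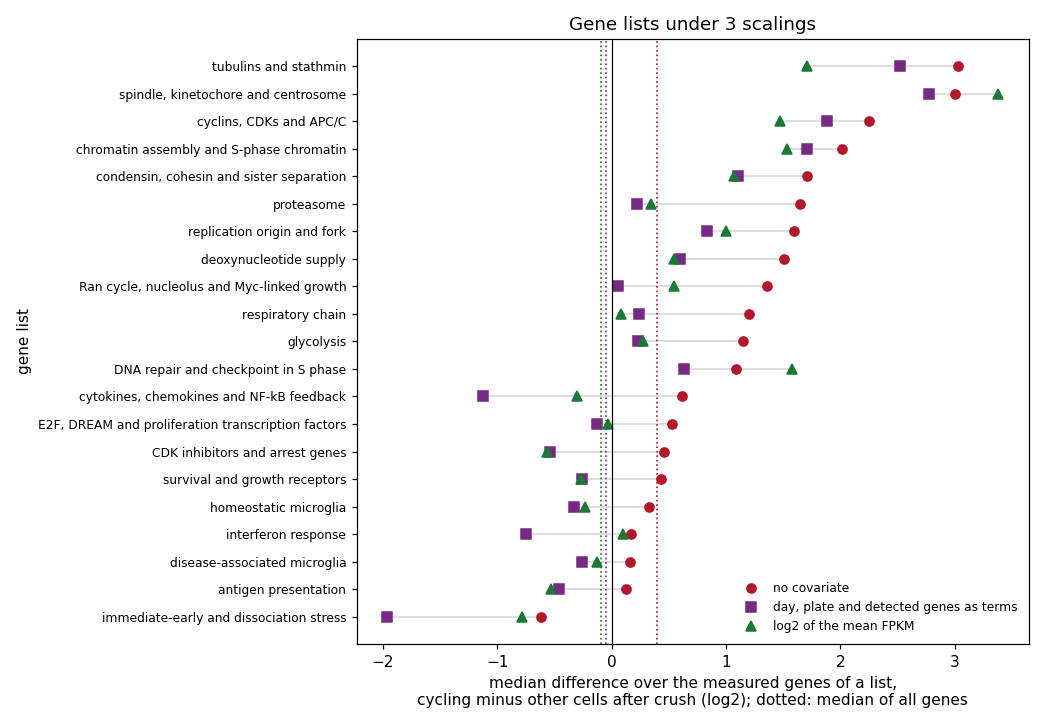
Median difference of the measured genes of each list, cycling minus other cells after crush, on the log2 scale, without a covariate (circles), with day, plate and detected genes as terms (squares) and for the log2 of the mean FPKM (triangles); dotted lines give the median of all genes under each, 0.39, -0.05 and -0.10. Spindle, tubulin, cyclin and chromatin lists stay far to the right on each scale, and the proteasome, respiratory chain and glycolysis move next to the dotted lines on the last 2.

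The cycling cells carried the genes of microglia. At least 3 of 10 microglia markers were at 20 FPKM in 12 of 12 cycling cells and 76 of 78 other cells, and the lowest cycling cell held 5. Cx3cr1, the fractalkine receptor of microglia, had 109, 316 and 641 FPKM as lowest, median and highest in cycling cells, against 3.01, 298 and 1875 FPKM in other cells. P2ry12, the purinergic receptor of resting microglia, had medians of 301 FPKM in cycling cells and 318 FPKM in other cells, and Tmem119 of 430 and 376 FPKM. Their differences were 0.13 and 0.19, and the ranges overlap fully.

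Of 18 homeostatic genes 3 were higher, namely Olfml3 (1.70), Fcrls (1.61) and Mef2c (1.56), and 1 was lower, the fructose transporter Slc2a5 (-1.04). The median was 0.32. Of 17 measured disease-associated genes 4 were higher and none lower (median 0.16), led by Lpl, lipoprotein lipase, at 1.94 and Cst7, cystatin F, at 1.62. Apoe and Axl were not called, at -1.02 and -1.21. Antigen presentation had 2 of 14 genes higher (median 0.12) and the interferon response 1 of 21 (median 0.16), which was Ifi27l2a at 2.01. The interferon median was -0.72 on day 2 and 0.95 on day 4. Of all genes tested 18.1% were called higher, and nothing is read from these counts about the lists.

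Cells with markers of border macrophages were among both groups. At least 3 of 8 such markers were at 20 FPKM in 2 of 12 cycling cells and 8 of 78 other cells. Summed over the 8 markers the level ran from 0.235 to 3939 FPKM in cycling cells and from 0 to 6070 FPKM in other cells. The 2 cycling cells were of day 4. H4 on plate 2 held 3469 FPKM of the platelet factor gene Pf4, 114 of F13a1 and 121 of Ms4a7, but 0.135 of the mannose receptor gene Mrc1. It also had 8 of 10 microglia markers at 20 FPKM, with 281 FPKM of P2ry12 and 273 of Tmem119. G4 on plate 3 held 2815 FPKM of Pf4, 241 of the mannose receptor Mrc1 and 130 of F13a1, with 5.66 of Tmem119. Lyve1 and Cd163 were under 1 FPKM in all 12 cycling cells and Cbr2 was at 0. Without the cells that held 3 markers of a cell type other than microglia, 1830 genes were higher and 53 lower.

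At least 3 monocyte markers were at 20 FPKM in 0 cycling cells and 1 other cell. The counts were the same for neutrophil markers and for rod markers. The neutrophil marker Csf3r by itself was at 20 FPKM or more in 5 cycling cells and 37 other cells. The 8 markers of T and NK cells were at 0 in every cycling cell. No cycling cell held 3 markers of B cells, cones, Müller glia, astrocytes, retinal ganglion cells, endothelium or pericytes.

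The receptor gene Gpr84 and the cytokine genes Tnf and Il1a, named in the title of the series, were followed in each cell. Gpr84, whose product binds fatty acids of medium length (chr15:103308235-103310612), had 0.213, 231 and 510 FPKM as lowest, median and highest in cycling cells, against 0.385, 11.6 and 3240 FPKM in other cells. It was at 20 FPKM in 10 of 12 cycling cells, 36 of 78 other cells and 16 of 54 untreated cells. The difference of 2.17 was called higher and was 2.81 on day 2 and 0.71 on day 4. It was 0.12 with detected genes as a term and 0.19 on the log2 of the mean, where all genes had medians of -0.05 and -0.10. Without plate 1 it was 1.20, and with day and plate as terms 1.14. Of its values above 0, 64% were not whole reads.

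Tnf had 0.262, 446 and 1702 FPKM in cycling cells, against 0.119, 6.92 and 4297 FPKM in other cells, and was at 20 FPKM in 7 of 12 and 33 of 78 cells. The cycling cells were of 2 kinds, with 7 at 426 FPKM or more and 5 at 2.16 FPKM or less. The difference of 1.36 was not called, since it was -1.35 in plate 2, and it turned to -0.84 with detected genes as a term. Il1a had 1.53, 99.8 and 1404 FPKM in cycling cells, against 1.14, 75.6 and 3972 FPKM in other cells, and its difference of -0.59 was not called. The Il1a difference was -1.22 with day and plate as terms and -2.70 with detected genes added. On day 2 Il1a was at 20 FPKM in 1 of 5 cycling cells and 29 of 49 other cells. On day 4 it was in 5 of 7 and 21 of 29. Of 22 measured cytokine, chemokine and NF-kB feedback genes 5 were higher and 1 lower (median 0.61), where 18.1% of all genes were higher. The median was -1.13 with detected genes as a term and -0.30 on the log2 of the mean, so its sign depends on the scale.

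Immediate-early and dissociation stress genes had a list median below 0 over all cells, but not on day 4 or in plate 3. Of 19 measured genes 1 was higher, Hsp90aa1 (1.87), and 1 lower, Ier5 (-1.53), where 18.1% of all genes were higher and 0.475% lower. The median was -0.62, made of -1.44 on day 2 and 0.28 on day 4. It was -2.43 in plate 2 and 0.17 in plate 3. In the 5 day 2 cycling cells Junb, a subunit of the AP-1 factor, was 10.4 FPKM in F2, 7.07 in F6 and 14.8 in D5, but 1770 in D1 and 1810 in E5. The same 3 cells had 6.45, 2.07 and 4.29 FPKM of Jun and 6.94, 3.29 and 5.31 of Btg2.

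Junb was under 20 FPKM in these 3 of 12 cycling cells, in 2 of 78 other cells and in 6 of 54 untreated cells. Averaged over the list, the log2(FPKM + 1) level was 1.72 in F6, below every other cell after crush, and 2.24 and 2.38 in F2 and D5, where 5 and 7 of the 78 other cells were lower. Tnf was also low in the 3 cells, at 0.850, 0.704 and 2.16 FPKM. Their Ccnb1 was at 211, 532 and 494 FPKM. A day 4 cycling cell (plate 2, H4) was also low, at 2.08 over the list, with 1.28 FPKM of Jun and 1.98 of Btg2 but 335 of Junb. Of these low cells F2, F6 and H4 were on plate 2 and D5 on plate 3. This set of cells was picked out after their values were seen.

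The other genes that differed most downward were a row of 105 bases with the symbol Ddit3 at -2.75 (1 of 12 and 31 of 78 cells at 20 FPKM), Lst1 (-1.66), the phosphatase gene Mtmr6 (-1.53), the interleukin-10 receptor gene Il10ra (-1.50), Lpxn (-1.47), the mitochondrial kinase gene Pink1 (-1.46) and the immunoglobulin segment Ighj1 (-1.44). Mtmr6 and Pink1 were at 20 FPKM in none of 12 cycling cells, against 21 and 14 of 78 other cells. Leaving out plate 2 gave -1.6 for Ddit3, -0.98 for Il10ra, -0.95 for Mtmr6, -0.995 for Pink1 and -0.15 for Ighj1. Leaving out plate 3 gave -0.71 for Lpxn and -2.49 for Ighj1, and leaving out plate 1 gave -2.23 for Lpxn. On day 4 alone Lpxn was at -0.82, Pink1 at -0.60 and Ighj1 at -0.90. The row with the symbol Ddit3 overlaps a longer row of 1713 bases with the same symbol, and 56% of its values above 0 were not whole reads. The longer row was at 20 FPKM in 2 of 12 cycling cells and 30 of 78 other cells, with a difference of -1.51. Reads of the overlap cannot be assigned to one of these rows.

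The untreated cell that met the rule was in well B5 of plate 2. It held 26 replication and 23 spindle genes at 20 FPKM, with 731 FPKM of Rrm2, 347 of Mcm3 and 179 of Pcna, and with 0.592 of Ccnb1 and 0.824 of Cdc20. Its Junb was 3014 FPKM and its P2ry12 1545 FPKM. It entered no difference.

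Wells of a plate column were compared because the 8 genes were read at traces in many cells. Where another well of the same plate column held a rule gene at 20 FPKM or more, 73.4% of the values under 20 FPKM were above 0, and 10.6% were at 1 FPKM or more. Where none did, the shares were 53.6% and 5.63%. The trace had a median of 0.161% of the neighbour's value. Among the other cells, 10 of 33 that shared a column with a cycling cell had 1 or 2 rule genes at 20 FPKM, against 8 of 45 that did not. The part of this in the counts was not tested.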

How the data were processed

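Cells were labelled by day, plate and well. The authors deposited FPKM values in 1 table of 55364 genes by 144 cells; FPKM times gene length sums to the same total in each cell. Per the labels' protocols, cDNA was amplified from each lysed cell and made into Nextera XT libraries; no molecular identifiers are mentioned. STAR 2.7.2b, featureCounts 1.6.1, cutadapt 1.16, Trimmomatic 0.36 and Trim Galore 0.4.4 are listed, per the submitters' processing notes, with the builds GRCm38.p6 and mm10; their settings are not given here. To recover the reads per cell, FPKM was multiplied by gene length, and the product that recurred most within the cell was taken as 1 read. A median of 59.4% of values above 0 were whole reads (tolerance 0.01), so no count model was fitted and differences were taken on log2(FPKM + 1), which understates the change of low genes. The comparison was tested on simulated data. Alternatives changed the rule, the pseudocount, the filter, the averaging, the covariates, and the days, plates and cells used. Genes at 1 FPKM or more in 10% of the 90 cells were measured; a repeated symbol kept 1 row. Named genes were the rule genes, the 10 largest differences in each direction, the 10 largest off the cell cycle lists, up to 4 per list, and Gpr84, Tnf and Il1a; further list members are given as examples. The cells, lists and named genes were chosen with earlier results of these data known. In the list of survival and growth receptors 1 of 10 measured genes was higher and 1 lower (median 0.43), where 18.1% of all genes were higher. Some further genes of the lists are not reported here. No mitochondrial gene is in the table (0 rows), and those transcripts were not analysed here. No 2 cells held the same values. Python 3.11.15, numpy 2.4.6, pandas 2.3.3, scipy 1.17.1 and matplotlib 3.10.9 were used.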

Additional observations from a re-analysis of the deposited data

Results flagged for a closer look

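Within the 5 cycling cells of day 2 and the 7 of day 4, some genes had 1 cell far from the rest, on the log2(FPKM + 1) scale. Of 66 groups of values examined 16 were so marked. Chance marks about 1 in 20 groups of normally spread values, and values split between near 0 and high need not follow that. On day 2 the lowest cell stood at 0.114 for Pbk, 0.187 for Ccnb1, 0.163 for Taf9 and 0.278 for Gpr84, and the next lowest at 7.43, 7.11, 5.54 and 6.71. The lowest Pbk value was in well D5 of plate 3 and the lowest Gpr84 value in F6 of plate 2. The highest day 2 cell stood at 6.72 for Ddit3, 6.77 for Ypel3, 7.45 for Ighj1 and 9.55 for Il1a, and the next highest at 1.27, 1.14, 0.91 and 3.65.

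On day 4 the lowest cell stood at 0 for Cks1b, 1.07 for Pbk, 0.279 for H2ax, 0 for Timm50 and 1.03 for Gpr84, and the next lowest at 7.79, 6.39, 5.73, 5.10 and 6.39. The highest day 4 cell stood at 5.85 for Lst1, 4.15 for Mtmr6 and 1.58 for Pink1, and the next highest at 2.15, 0.67 and 0.47. The differences of Ddit3, Ypel3, Ighj1, Lst1, Mtmr6 and Pink1 between cycling and other cells would thus be more negative without that 1 cell of a day, and those of Cks1b, Pbk, H2ax and Timm50 more positive.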

How the results depend on the processing

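The rule gave 20 cycling cells with 2 genes required. Against 1756 genes higher and 46 lower, the count of higher genes was 568 with a pseudocount of 10, 740 for the log2 of the mean FPKM, 713 with day, plate and detected genes as terms, 2653 without plate 2 and 1116 of the 5822 genes with whole reads in most of their values (19.2%, against 18.1% of all genes), an alternative chosen after seeing the data. The count of lower genes was 189 and 7 with pseudocounts of 0.1 and 10, 1157 for the log2 of the mean, 124 with day and plate as terms, 577 with detected genes added, 564 on day 2 alone, 103 on day 4 alone, 134 without plate 1, 229 without plate 3, 13 with 2 rule genes required and 87 with 4. With 1 day alone, or without plate 2 or 3, the rule asked for the same sign in fewer days or plates than in the main count. The cause of the changes in count was not tested. Named genes gave 603 values within 1 SD over day and plate of the main value, 36 beyond it and 2 of the other sign. The rule genes, by which the cells were chosen, are among these named genes. The count of 603 is thus partly set by the rule, and a count without the rule genes is not given here. A change of sign was counted only for genes with a main difference of at least 1 in size. The 2 were Tnf at -0.84 with detected genes as a term and Mtmr6 at 0.0218 with 2 rule genes required. Il1a, below that size at -0.59 and so not among the 2, was 0.106 without plate 3. List medians gave 331 within and 45 beyond. The 12 cycling cells, 1 of them on plate 1, limit each value.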
